A study of Mus musculus with 6 samples.

Results

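Periaxin and the dystroglycan complex of the sciatic nerve were examined at the level of their transcripts, through 8 genes picked by symbol: *Prx*, *Drp2*, *Dag1*, *Utrn*, *Dmd*, *Sgcb*, *Sgcd* and *Sgce*. Each symbol matched a single row, so 8 of the 59485 genes in the deposited table are described here. Sciatic nerves were collected at postnatal day 4 (P4) from 3 animals labelled wild-type (controls) and 3 animals labelled Ht-PA-Cre; Adar1fl/fl;R26R (mutants), with 1 RNA-seq library for each animal. In the mutants, the promoter of human tissue plasminogen activator drives Cre, which recombines the floxed *Adar1* alleles in neural crest (NC) derivatives, Schwann cells (SCs) among them, and the R26R tracer labels these cells. By the study's breeding scheme, the controls lack Cre but carry R26R and at least 1 floxed *Adar1* allele. A nerve also holds fibroblasts, perineurial cells, vessels and blood cells, not all of which belong to this lineage, so each value sums over cell types.

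Dystroglycan is the surface receptor through which a myelinating SC holds its basal lamina. Its alpha subunit lies outside the cell and binds laminins by way of a sugar chain, and its beta subunit spans the membrane and anchors to dystrophin family proteins inside. SCs make 3 such anchors, utrophin, a short form of dystrophin, and dystrophin-related protein 2 (DRP2). Periaxin, a PDZ domain protein of myelinating SCs, joins DRP2 and dystroglycan in patches where the outer myelin surface is pressed against the SC membrane. These patches border the Cajal bands, the channels of cytoplasm that run along the internode. Sarcoglycans form a further membrane subcomplex beside dystroglycan, with epsilon-sarcoglycan taking the place that alpha-sarcoglycan has in skeletal muscle. Loss of periaxin or dystroglycan in SCs is known to lead to unstable myelin and demyelinating neuropathy.

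The start regions of 3 members are shown because these genes lie at different points of the range of change described below. Their log2 changes were -3.40 for *Prx*, -1.49 for *Dag1* and -0.59 for *Sgcb*. Each sequence runs from 250 bases before to 50 bases after the RefSeq start on GRCm38.p6 (the mm10 assembly), 5′ to 3′ on the gene's strand. Capitals mark matches, on either strand, to 4 short motifs: the SOX forms ACAAAG and ACAATG, the TEAD form CATTCC and the EGR form GCGTGGG. No motif overlapped another in these windows.
Prx (chr7:27499074-27499373, plus strand): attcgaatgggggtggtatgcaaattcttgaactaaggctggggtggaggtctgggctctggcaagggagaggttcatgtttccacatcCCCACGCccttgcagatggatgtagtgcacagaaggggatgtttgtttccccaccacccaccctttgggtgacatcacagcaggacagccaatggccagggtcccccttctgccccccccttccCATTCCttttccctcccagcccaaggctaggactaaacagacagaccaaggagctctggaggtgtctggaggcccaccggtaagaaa
Dag1 (chr9:108263909-108264208, minus strand): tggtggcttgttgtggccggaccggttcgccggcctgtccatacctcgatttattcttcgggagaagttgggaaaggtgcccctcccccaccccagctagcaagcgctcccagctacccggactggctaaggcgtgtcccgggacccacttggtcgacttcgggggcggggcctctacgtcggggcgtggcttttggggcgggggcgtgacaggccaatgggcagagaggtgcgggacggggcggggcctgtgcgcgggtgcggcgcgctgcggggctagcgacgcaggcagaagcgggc
Sgcb (chr5:73647688-73647987, minus strand): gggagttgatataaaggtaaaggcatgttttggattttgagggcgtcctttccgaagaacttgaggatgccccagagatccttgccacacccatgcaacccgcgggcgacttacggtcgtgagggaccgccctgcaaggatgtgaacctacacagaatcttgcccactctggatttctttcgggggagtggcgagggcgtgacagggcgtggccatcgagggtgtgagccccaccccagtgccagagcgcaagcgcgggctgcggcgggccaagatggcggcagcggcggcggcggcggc

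The *Prx* window held 1 TEAD match, starting 37 bases before the start site, and 1 EGR match on the opposite strand. TEAD and EGR matches occurred in 14.7% and 5.04% of the 32851 RefSeq promoters of the same length, and the SOX forms in 18.7% and 12.6%. RefSeq start regions were matched for 6 of the 8 members, 8 windows in all, and the only other match was a TEAD form at *Sgcd*. The *Sgcd* window (chromosome 11, 47379276 to 47379575) lies outside the row counted for that gene. The windows of *Utrn* and *Dmd* lie inside their rows, away from the start of each. Which start is used in the nerve was not tested. The windows also differed in base composition. That of *Prx* had 3 CpG dinucleotides and a GC content of 56.7%, against 30 and 69.7% for *Dag1* and 24 and 62.7% for *Sgcb*, with medians of 7 and 52.7% over all promoters. The windows of *Utrn* (2 CpG, 46% GC) and the upstream one of *Dmd* (2 CpG, 45.7% GC) were poorer in both than that of *Prx*, and a second *Dag1* window was richer (47 CpG, 75.3% GC). These matches are letters in a window and were not tested for binding.

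*Drp2*, *Dmd* and *Utrn* derive from a common ancestor, so it was asked how far reads of 130 bases could be shared among them. The longest exact stretches that their coding sequences have in common are shown for that reason, in capitals throughout, from the transcripts of GENCODE M21 with the longest coding sequence.
Dmd and Utrn: CCTTTGGGGGCAGTAACATTGAGCC
Drp2 and Dmd: CCCCAGTCTATGGTGTGGCTG
Drp2 and Utrn: TCCTGCGGCAGCACAAA

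These stretches span 25, 21 and 17 bases, starting at coding base 9737 of *Dmd*, 1828 of *Drp2* and 2594 of *Drp2*. Among the sarcoglycan pairs examined, shared stretches were 11 or 12 bases. A coding read of 130 bases that matched in full would therefore fall on a single one of these genes. The coding sequences span 2943 bases in *Drp2*, 11034 in *Dmd* and 10290 in *Utrn*. Lengths of the counted regions are not given, so the level of a gene is not ranked against that of another, and differences between genes inside a library are used only to compare the genotypes.

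The libraries held 50938349 to 78250094 reads on genes, and values are read counts divided by a size factor for each library (normalized read counts). The targeted gene *Adar* had values of 1602, 2066 and 1133 in the libraries labelled control and 11768, 9311 and 9773 in those labelled mutant. This value is for the gene as a whole and cannot tell the deleted segment from the rest. The deletion could therefore not be checked from it, and all directions given rest on the labels. The cause of the rise was not tested. *Xist* and 4 Y-linked genes placed 2 female animals among the controls and 1 among the mutants. *Drp2* and *Dmd* are X-linked, and a term for sex in the model left both past the threshold, at log2 fold changes of -3.67 and -1.89. Summed values of 12 skeletal muscle markers ran from 8219 to 41301 in control-labelled and from 54641 to 377824 in mutant-labelled libraries, highest in mutant replicate 3. Of these markers, 11 passed the threshold and were higher, where 13.9% of all genes tested did. With an adjusted p at or under 0.05 alone, 8 were higher, beside 19.0% of all genes tested. The count past the threshold was 7 in the limma fit without trend and between 7 and 12 with a library left out in turn. Muscle fibres carry dystrophin and sarcoglycans, so these values stand beside those genes below. SC markers were present in every library. *Sox10* was at 10919 to 12618 in controls and 5838 to 9171 in mutants, lower by less than 2-fold (log2 fold change -0.71, adjusted p = 0.00874). From bulk values alone, fewer SCs cannot be told apart from less RNA in each SC.

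In the mutant-labelled libraries, 5 of the 8 members were lower past the threshold: *Prx*, *Drp2*, *Dmd*, *Utrn* and *Dag1*. Genes passed when their unadjusted p was at or under 0.05 and their change reached 2-fold, and 10.4% of the 25802 genes tested passed as lower. No member passed it as higher, whereas 13.9% of all genes did. *Sgcb* and *Sgce* were lower by less than 2-fold, and *Sgcd* overlapped between the genotypes. With an adjusted p at or under 0.05 as the only criterion, 7 of 8 members were lower, where 16.0% of all genes tested were. The same 7 members had all 3 mutant-labelled values under all 3 control-labelled values, a pattern seen in 23.3% of all genes. All 8 members passed the filter on low values, with a median log2 fold change of -1.57 beside a median of 0.03 over all genes tested.

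**Figure D1:**
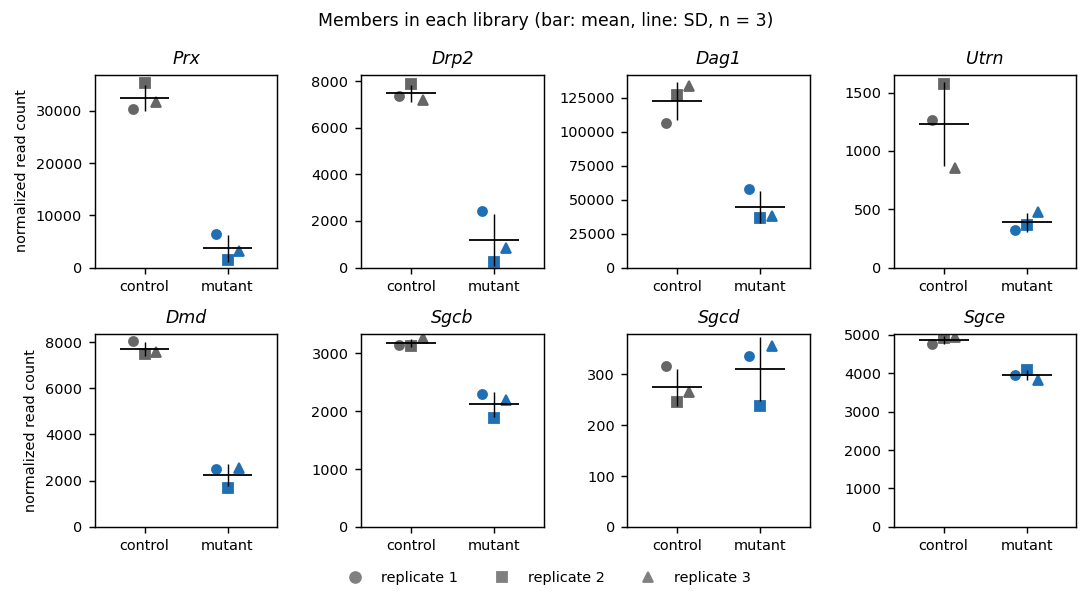
Normalized read counts (y axis, from 0) of the 8 members in control and mutant libraries, with the shape giving the replicate, the bar the mean and the line the SD of 3 libraries. Control and mutant points are apart for all members but *Sgcd*, whose values run from 245 to 315 and from 238 to 356.

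*Prx* (GSMG0034214, chromosome 7, 27499324 to 27520214, plus strand of mm10) encodes periaxin, the scaffold of the complex. In replicates 1 to 3 of the controls its values were 30341, 35230 and 31712, and in those of the mutants 6439, 1452 and 3111. Every mutant-labelled library was far under the controls, yet the mutants themselves spread more than 4-fold, with replicate 1 the highest and replicate 2 the lowest. The mean went from 32427 ± 2522 to 3667 ± 2540 (SD, n = 3), a ratio of 0.113. The log2 fold change was -3.40 (standard error 0.44, adjusted p = 0.000603 from limma), with a 95% interval from -4.39 to -2.40. A gene without a symbol on the opposite strand (GSMG0035672) lies inside *Prx*, with values of 284 to 359 in controls and 48.2 to 98.9 in mutants. Whether the counting used strand is not given in the sources used here, so reads of this locus and of *Prx* may not be told apart.

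*Drp2* (GSMG0042094, chromosome X, 134404780 to 134456573, plus strand) encodes the dystrophin family member that periaxin binds. The controls were tightly grouped at 7383, 7894 and 7190, while the mutant-labelled libraries had 2429, 246 and 853. The same replicate order as for *Prx* was seen, and the spread among mutants was about 10-fold. With means of 7489 ± 363 and 1176 ± 1127 (SD, n = 3), the log2 fold change was -3.23 (standard error 0.66, adjusted p = 0.0064). This value depended on the mutant libraries, at -4.03 without replicate 1 and -2.38 without replicate 2, and passed the threshold in both cases.

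*Dag1* (GSMG0041295, chromosome 9, 108204861 to 108263958, minus strand) encodes both dystroglycan subunits, which are cut from a single precursor. Control values were 106532, 127078 and 133872, and mutant-labelled values were 57862, 36771 and 38103. No mutant-labelled library reached the controls, and replicate 1, the highest, was at 47.2% of the control mean, with replicate 3 at 31.1%. The log2 fold change was -1.49 (standard error 0.18, adjusted p = 0.000419, 95% interval from -1.90 to -1.09). An unnamed gene on the opposite strand (GSMG0040079) overlaps it, at 181 to 256 in controls and 71.2 to 92.4 in mutants.

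*Dmd* (GSMG0041898, chromosome X, 82814910 to 85205050, plus strand) encodes dystrophin, which SCs make as a short form from an internal start. The table gives a single value for all forms. Controls had 8035, 7469 and 7567, and mutant-labelled libraries 2486, 1700 and 2530. The controls were tight, mutant replicate 2 was the lowest library, and the log2 fold change, -1.80, had the smallest p of the 8 members (standard error 0.15, adjusted p = 7.48e-05). *Dmd* ranked the libraries as the summed muscle markers did, 1, 3, 2 in controls and 3, 1, 2 in mutants, and so did *Sgcd*, while 3.15% of all genes tested had this order. Muscle marker values were higher in the mutant-labelled libraries and *Dmd* was lower, at -1.90 without mutant replicate 3. The part of muscle in the value of *Dmd* was not tested. In the table, 11 other rows overlap *Dmd* on its strand, the highest value of which in any library was 134, and 5 overlap it on the opposite strand, with values up to 1.98.

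*Utrn* (GSMG0003807, chromosome 10, 12381798 to 12869367, minus strand) encodes utrophin, the widely expressed relative of dystrophin. Controls had 1263, 1572 and 854, against 324, 361 and 478 in the mutant-labelled libraries. This member was the most uneven among controls, and replicate 3 had the lowest control and the highest mutant value, though the genotypes did not overlap. The log2 fold change was -1.64 (standard error 0.24, adjusted p = 0.00131). No other gene of the table overlaps it or *Drp2*.

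**Figure D2:**
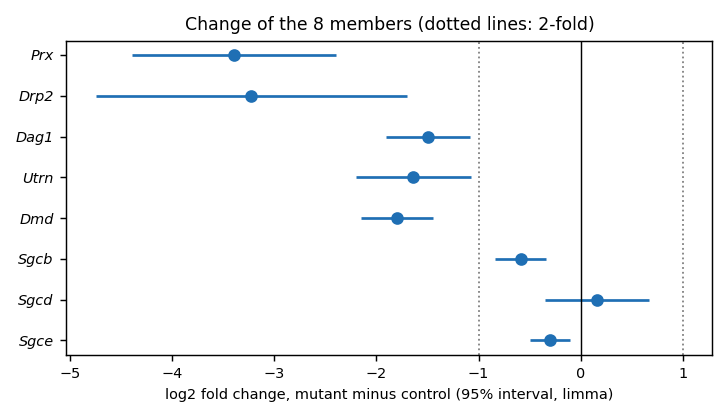
Log2 fold change of each member, mutant minus control (x axis, log2 scale), with the 95% interval of limma as a line and dotted lines at 2-fold. *Prx* and *Drp2* lie near -3.4 and -3.2, the intervals of *Dag1*, *Utrn* and *Dmd* end below -1, and that of *Sgcd* crosses 0.

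None of the 3 sarcoglycans changed by 2-fold. *Sgcb* (GSMG0030625, chromosome 5, 73632749 to 73647791, minus strand), the beta subunit, had values of 3145, 3132 and 3268 in controls and 2299, 1879 and 2187 in mutants. All mutant-labelled values were lower, at -0.59 on the log2 scale (standard error 0.11, adjusted p = 0.00355, 95% interval from -0.84 to -0.34). *Sgce* (GSMG0032695, chromosome 6, 4674352 to 4747204, minus strand), the epsilon subunit, had 4760, 4910 and 4946 in controls and 3968, 4083 and 3820 in mutants. Its groups were tight and apart, at -0.30 on the log2 scale (standard error 0.08, adjusted p = 0.0242). That call was lost in 7 of 18 other settings. They include rescaling to the same total, which moved the median of all genes from 0.03 to 0.19 and *Sgce* to -0.14 (adjusted p = 0.225), and the replicate block (adjusted p = 0.0768).

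*Sgcd* (GSMG0051257, chromosome 11, 46978783 to 47132685, minus strand), the delta subunit, had values of 315, 245 and 265 in controls and 335, 238 and 356 in mutants. The groups overlapped, at 0.16 on the log2 scale (standard error 0.22, adjusted p = 0.618, 95% interval from -0.35 to 0.67). Falls of the size seen for *Dag1*, *Dmd*, *Utrn* and *Sgcb* lie outside this interval. *Sgcd* is also a muscle gene, and its order of libraries matched the muscle markers, as given above. Another 3 rows overlap *Sgcd* on its strand, with values up to 80.0 in controls and 99.9 in mutants. A row inside *Sgce* on its strand (GSMG0032696) had 174, 110 and 283 in controls and 13.1, 94.6 and 48.5 in mutants (log2 fold change -2.12, adjusted p = 0.0421).

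**Figure D3:**
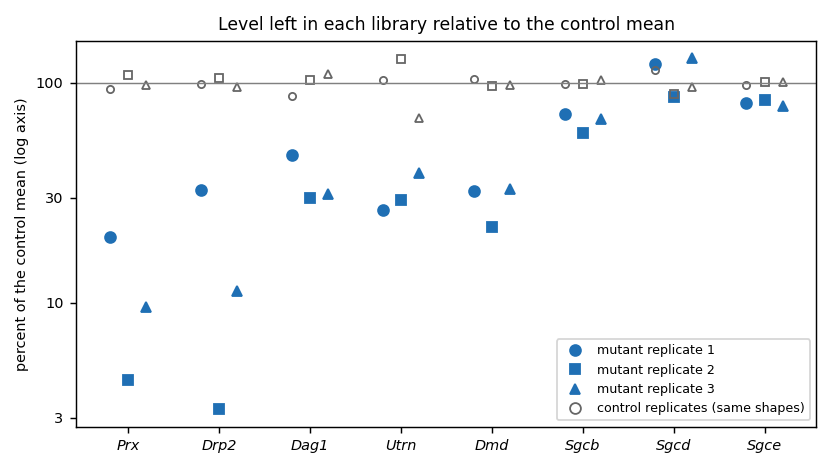
Level of each member in each library as a percent of its control mean (y axis, log axis), with filled symbols for mutant and open symbols for control libraries and shapes for replicates. Mutant replicates 1, 2 and 3 keep 19.9, 4.48 and 9.59% of *Prx* and 81.4, 83.8 and 78.4% of *Sgce*.

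Members were next compared with each other inside each library, since such a difference does not depend on how libraries are scaled. The difference in log2 level between 2 members was computed for 8 pairs, and controls and mutants were compared by an exact two-sided permutation test, whose smallest possible p with 3 against 3 is 0.1. No pair can therefore reach 0.05, and the overlap of the groups is given as well. *Prx* relative to *Dag1* dropped from -1.91 ± 0.14 in controls to -3.81 ± 0.77 in mutants (SD, n = 3; exact p = 0.1, adjusted p = 0.2 over 8 pairs), without overlap. *Drp2* relative to *Dag1* moved from -4.03 ± 0.18 to -5.76 ± 1.34, also without overlap. The size of that shift, -1.73, rested on the mutant libraries, at -1.001 without replicate 2 and -2.32 without replicate 1. *Sgce* relative to *Dag1* went the other way, from -4.65 ± 0.14 to -3.45 ± 0.37, and *Sgcb* relative to *Sgcd* from 3.54 ± 0.19 to 2.79 ± 0.18. Both pairs had separate groups and the same exact p of 0.1.

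The remaining 4 pairs overlapped. For *Prx* relative to *Drp2* the controls lay between 2.04 and 2.16, and the mutant-labelled values were 1.41, 2.56 and 1.87 in replicates 1 to 3, all outside the control range but on both sides of it (exact permutation p = 0.7). *Dmd* and *Utrn* had differences of 2.69 ± 0.45 and 2.52 ± 0.37 (exact permutation p = 0.6). For *Drp2* relative to *Dmd*, the mutant-labelled values were -0.03, -2.78 and -1.57 in replicates 1 to 3 against -0.12 to 0.08 in controls, so that replicate 1 lay inside the control range and the others did not. For *Drp2* relative to *Utrn*, replicate 1 was likewise within the controls, at 2.90, and replicates 2 and 3 were at -0.55 and 0.83. The mean shifts of these *Drp2* pairs, -1.42 and -1.59, were -0.76 and -0.78 without mutant replicate 2 and -2.14 and -2.51 without mutant replicate 1.

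**Figure D4:**
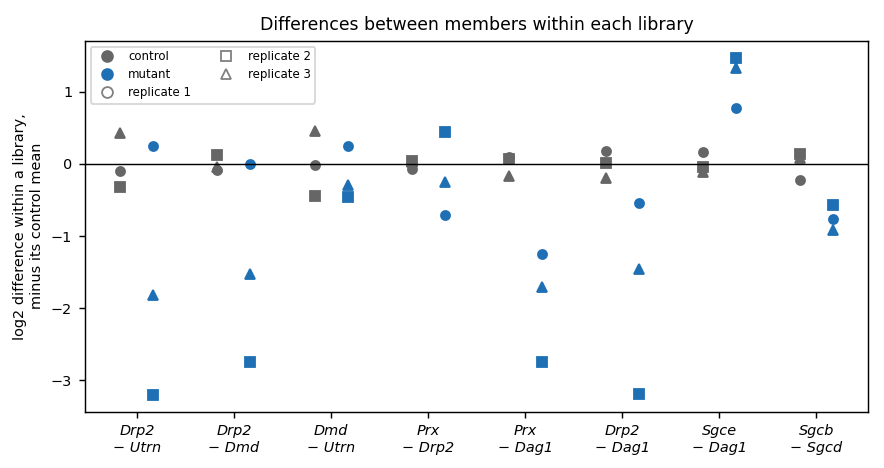
Difference in log2 level between 2 members within each library, minus the control mean of that difference (y axis, log2 scale), for 8 pairs with controls in grey, mutants in blue and shapes for replicates. All 3 mutant points lie on 1 side of the control range for *Prx* and *Drp2* against *Dag1*, for *Sgce* against *Dag1* and for *Sgcb* against *Sgcd*.

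The mutant-labelled libraries differed among themselves. *Prx*, *Drp2*, *Dag1* and *Sgcb* (4 of 8 members) ranked them replicate 1, 3, 2 from high to low. This order held for 18.4% of all genes tested and for 29.8% of those past the threshold and lower. The genes whose pattern was most like that of *Prx* were found by the Euclidean distance of log2 values, each minus its control mean, over 6 libraries. Among 16648 genes with a symbol they were *Sema6c*, *Gjc3*, *Rhpn1*, *Gjb1* and *Car14*, at distances of 0.23 to 0.34. With a pseudocount of 10 in place of 1, *Pmp22*, a compact myelin gene, took the place of *Car14* (distance 0.38). *Gjc3* and *Gjb1* encode connexins of myelinating glia, *Sema6c* a semaphorin and *Car14* a carbonic anhydrase. *Drp2* was at rank 30 with a distance of 0.87, the next member being *Dmd* at rank 535, and *Sgcd* was farthest, at rank 8092.

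Next, the other subunits of the complex were examined. Of 9 genes (sarcoglycans, sarcospan, syntrophins and dystrobrevins), 8 were tested, 3 were higher past the threshold and none lower, against 13.9% and 10.4% of all genes. *Dtna*, the alpha-dystrobrevin that binds dystrophin, rose from 214 ± 29.9 to 552 ± 157 (SD, n = 3; log2 fold change 1.33, adjusted p = 0.00392). *Sntg2*, a gamma-syntrophin, rose from 36.7 ± 16.6 to 112 ± 37.1 (1.65, adjusted p = 0.0334). *Sgca*, the alpha-sarcoglycan of striated muscle, was at 74.4, 18.9 and 32.9 in controls and 93.8, 62.7 and 311 in mutants. It overlapped between the genotypes, at 1.74 on the log2 scale (adjusted p = 0.0841), and ranked the libraries as the muscle markers did, with mutant replicate 3 the highest. This call was lost in 6 of 18 other settings, among them the fits without mutant replicate 1 or 3 and without control replicate 2 or 3. *Sspn*, sarcospan, was lower by less than 2-fold, with a log2 fold change of -0.66 (adjusted p = 0.00135). Over the 8 tested genes the median log2 change was 0.87, and *Sgcz* was below the filter.

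Another list held the enzymes that build the laminin-binding sugar of dystroglycan. Of its 16 genes, 2 were lower past the threshold (10.4% of all genes tested were), none were higher (13.9%), and 14 did not pass, with a median log2 fold change of -0.35. With an adjusted p at or under 0.05 alone, 7 were lower and none higher, where 16.0% of all genes tested were lower and 19.0% higher. *Pomk*, a kinase that phosphorylates the core mannose, fell from 562 ± 70.2 to 278 ± 53.8 (SD, n = 3; -1.03, adjusted p = 0.00557). *Pomgnt1*, which adds N-acetylglucosamine to O-mannose, fell from 2694 ± 273 to 1337 ± 150 (-1.01, adjusted p = 0.000537). Both sat at the 2-fold limit and lost this call in 4 and 5 of 18 other settings, including the same total for all libraries, at log2 fold changes up to -0.86 and -0.85.

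**Figure D5:**
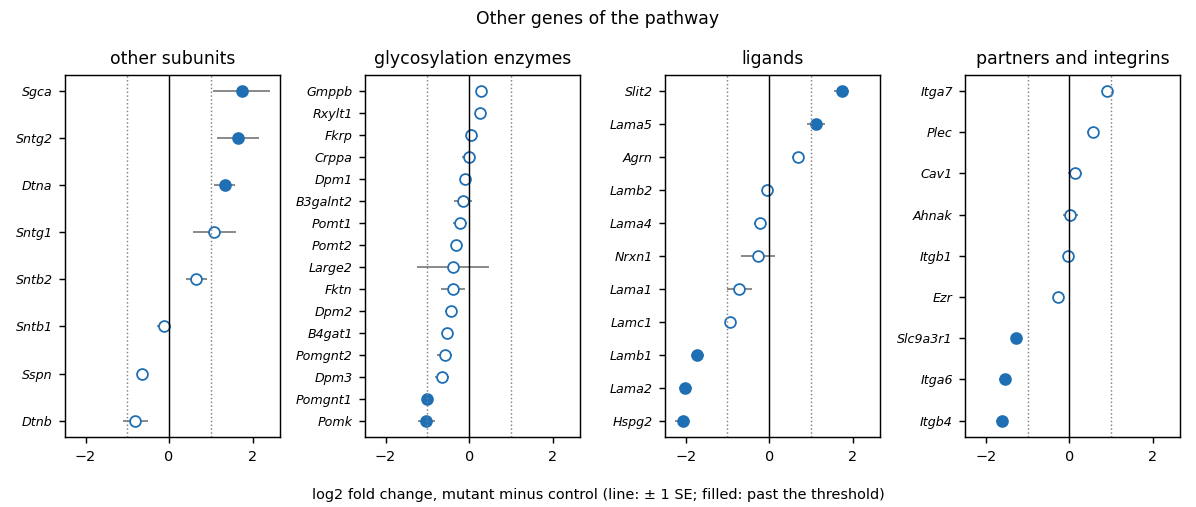
Log2 fold change (x axis, mutant minus control) of the tested genes in 4 lists around the complex, with lines of 1 standard error and filled points for genes past the threshold. Other subunits reach 1.74 (*Sgca*) while glycosylation enzymes stay between -1.03 and 0.28, and *Hspg2*, *Lama2* and *Lamb1* are the lowest ligands.

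Among 11 extracellular ligands or their chains, 3 were lower and 2 higher past the threshold, beside 10.4% and 13.9% of all genes tested. *Lama2*, the alpha chain of the main laminin of the SC basal lamina, fell from 52080 ± 6163 to 13115 ± 3025 (SD, n = 3; log2 fold change -2.01, adjusted p = 5.71e-05). *Lamb1*, its beta chain, fell by 1.72 on the log2 scale (adjusted p = 6.88e-05), and *Lamc1*, its gamma chain, was just under 2-fold at -0.95 (adjusted p = 0.000482). *Hspg2*, which encodes perlecan, fell by 2.07 (adjusted p = 7.9e-05). *Slit2* rose from 1214 ± 268 to 3995 ± 490 (1.74, adjusted p = 0.000197) and *Lama5* from 880 ± 52.7 to 1982 ± 667 (1.12, adjusted p = 0.00446), the latter below 2-fold without mutant replicate 2 (0.86). *Agrn*, agrin, changed by 0.70 (adjusted p = 0.00728).

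Of 10 binding partners and laminin-binding integrins, 9 were found in the table, 3 were lower past the threshold and none higher, beside the same 10.4% and 13.9%. *Itgb4* fell from 9176 ± 1409 to 2956 ± 134 (SD, n = 3; -1.62, adjusted p = 4.35e-05) and *Itga6* from 35474 ± 551 to 12437 ± 2592 (-1.53, adjusted p = 0.000132). Their products pair as the integrin alpha 6 beta 4 of myelinating SCs. *Slc9a3r1*, a PDZ protein that binds ezrin, fell from 2071 ± 138 to 857 ± 40.3 (-1.27, adjusted p = 8.27e-05). *Itga7*, the alpha subunit of another laminin receptor that SCs and muscle share, was higher by less than 2-fold, at 6595 to 7420 in controls and 12579 to 13905 in mutants (0.89, adjusted p = 0.000159). *Ahnak2* was not analysed here.

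Markers of other cells stood as follows beside these values. Of 8 SC lineage genes, *S100b* and *Erbb3* were lower and *Gfap* higher past the threshold, and the other 5 did not pass. These were *Sox10* (log2 fold change -0.71, adjusted p = 0.00874) and *Foxd3* (-0.38, adjusted p = 0.0498), with *Ngfr* at 0.00, *Cdh19* at 0.13 and *Ncam1* at 0.28. The sum of the list was 54354 to 60144 in controls and 34854 to 42271 in mutants. Of 8 fibroblast and perineurial markers, the collagen genes *Col1a1*, *Col1a2* and *Col3a1* were lower past the threshold, with log2 fold changes of -1.10, -1.02 and -1.22. They make up most of the summed value, which was 2499650 to 2903710 in controls and 1025860 to 1501080 in mutants. The other 5 did not pass and did not share a direction, with *Dcn* at 0.00, *Pdgfra* at 0.16, *Lum* at -0.43, *Slc2a1* at -0.28 and *Cldn1* at 0.54 (adjusted p = 0.00723). Of 7 endothelial markers none passed, and their sums overlapped at 15206 to 23322 in controls and 21247 to 29374 in mutants. All their log2 fold changes were above 0, with a median of 0.47. By adjusted p alone, *Kdr* (0.81, adjusted p = 0.0331) and *Emcn* (0.57, adjusted p = 0.0339) were higher and the others were not. Of 7 macrophage and leukocyte markers 2 were lower (*Csf1r* at -1.25 and *Mrc1* at -2.27) and 2 higher (*Ptprc* at 1.33 and *Aif1* at 1.04) past the threshold. *Itgam* was higher by less than 2-fold (0.56, adjusted p = 0.0306), and *Cd68* (-0.22) and *Adgre1* (-0.19) overlapped between the genotypes. Sums of this list were 9806 to 13016 in controls and 5543 to 7088 in mutants. *Csf1r* and *Mrc1* had the highest control means in it (4621 and 3602), so the lower sum does not stand for the list as a whole. Of 9 vessel wall markers 2 were higher (*Tagln* and *Des*, the latter also a muscle gene), with sums of 29454 to 56485 in controls and 40365 to 94964 in mutants, and none of 5 adipocyte markers passed, with 25819 in mutant replicate 2 against 4012 to 12167 elsewhere. The part of these cells in the values of the members was not tested.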

How the data were processed

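Sciatic nerve poly-A RNA of 6 P4 animals was sequenced as 130-base paired-end reads. The authors aligned them to mm10 with STAR 2.4.0, counted reads per FAST DB gene on its constitutive regions, scaled each library by its DESeq2 size factor and deposited the resulting signal. In each library, 100% of values were whole numbers of reads (tolerance 0.01) once divided by what 1 read is worth there (0.727 to 1.27), and edgeR and DESeq2 were run on these counts, with 5805 and 6026 genes past the threshold against 6251 by limma. Groups and replicate numbers are those of the labels. The number of libraries, 3 for each genotype, limits the precision. Each limma p-value sets a change against a spread between animals. That spread is shared by both genotypes and drawn in part from other genes.

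log2(value + 1) was fitted with limma (lmFit, eBayes with trend) over the 25802 genes whose mean reached 10 in either genotype. Fold changes are on this scale, which understates low genes, and p-values were adjusted over all genes tested (Benjamini-Hochberg). Members, gene lists and the rule for named genes (all members, the 3 lowest p past the threshold per list and direction, the 5 genes nearest to *Prx*, and defining markers of each marker list) were chosen with earlier results of these data known. *Sspn*, *Lamc1*, *Agrn* and *Itga7* fall outside this rule and were chosen after their values were seen. Some genes of these lists are not reported here and enter no list count. The main limma fit, edgeR and DESeq2 were tested on simulated data that used the same spread setting for all genes and both genotypes. The other settings were not. Alternatives covered pseudocounts, filters, scalings, eBayes without trend, edgeR's quasi-likelihood test, DESeq2, a replicate block, a sex term and each library left out. R 4.3.3, limma 3.58.1, edgeR 4.0.16 and DESeq2 1.42.0 were used.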

Additional observations from a re-analysis of the deposited data

How the results depend on the processing

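The 5 members past the threshold numbered 5 in all 12 other settings and in the 6 fits that each drop a library, and the replicate block also gave 5. No member changed sign or crossed the threshold. The count by adjusted p alone was 6 or 7 in place of 7, with *Sgce* the member that was lost. In the limma fit without trend, the adjusted p of *Prx* went from 0.000603 to 0.0118 and that of *Drp2* from 0.0064 to 0.0421. The log2 fold change of *Prx* ran from -3.70 to -3.13 over the other settings and from -3.93 to -2.85 with a library left out, and that of *Drp2* from -3.67 to -2.65 and from -4.03 to -2.38. Pathway genes past the threshold numbered 10 to 14, against 13, and the replicate block gave 13. Of the within-library differences, *Dmd* minus *Utrn* changed sign without control replicate 3 (0.0649, range -0.38 to 0.06 with a library left out) and *Prx* minus *Drp2* without mutant replicate 1 (0.0987, range -0.48 to 0.10). The cause was not tested. The other pairs kept their sign, with sizes that moved for those of *Drp2*. Same-numbered libraries did not deviate together (correlations of -0.062, -0.055 and 0.009 across genes). The replicate block lost the adjusted call of *Sgce* and no other call of a member. With 3 libraries for each genotype, changes as small as those of *Sgce* and *Sgcd* are near the limit of what these data resolve.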
